A study of Homo sapiens with 4 samples.

Results

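The genes described here are 93 pseudogenes of ribosomal protein genes and of NPM1, measured in transfected HEK293T cells, a line made from human embryonic kidney. The vectors encoded SF3B1, a core protein of the U2 snRNP, the spliceosome part that recognises the intron branch point. Wild-type SF3B1 (WT) and its forms R625H, K666T and K700E, each a single amino acid substitution, gave 1 library each, 4 in all. The labels state plasmid amounts of 1000 ng (R625H, K666T) and 2000 ng (K700E); that of WT was not stated in the sources at hand. The cells keep their own SF3B1 gene under every vector, and each library is a bulk sample of a transfected culture. For K700E, the substitution and the plasmid amount cannot be told apart. With 1 library per vector no difference has a replicate check, no test was made, and "higher" and "lower" describe these libraries only.

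Members were chosen by symbol (RPL or RPS, a number, an optional letter, P and a number, or NPM1P and a number) and by at least 50 reads in at least 1 library. Of 1537 genes with such a symbol and a parent gene, 93 met the read limit, 738 had 1 to 49 reads in their highest library and 706 had no read. RPS19BP1, a protein gene whose symbol has the same form but which has no parent gene of that name, also met the limit and was left out. The members were 63 RPL, 25 RPS and 5 NPM1 pseudogenes of 43 parent genes, among 16126 genes of any kind at the limit. Read counts chose them, so a level of at least 50 reads is no finding. In 65 members all 4 libraries reached 50 reads, and 4 passed through WT alone (RPS18P12, RPS10P3, RPS3AP5 and RPL23P2). Just inside the limit lay RPL13AP20, with 34, 50, 52 and 50 reads (here and below in the order WT, R625H, K666T, K700E), RPL23P2 with 53, 29, 34 and 46, and RPS3AP5 with 54, 34, 35 and 27. Just outside lay RPS27P19 with 49, 25, 44 and 24 reads, RPL5P12 with 47, 30, 35 and 37, and RPS3P3 with 47, 26, 36 and 22.

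Ribosomal proteins of the large (RPL) and small (RPS) subunit are made from some of the most abundant mRNAs of a dividing cell, and NPM1 is an abundant nucleolar protein that takes part in ribosome assembly. Most of their pseudogenes are processed: spliced mRNA was copied back into the genome, so the copy has no introns and lies away from the parent. Reads of parent mRNA can therefore align to a copy, and reads of a copy to its parent, wherever few bases differ, which makes counts of every member uncertain. Reads that align equally well to several places are kept apart in the files and were not counted for a gene.

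The RPS2, RPL13A and RPL23A families are shown first because they hold, in turn, the most abundant member, copies on opposite sides of their parent, and abundant copies of low likeness. Each window is the 30-base stretch of the parent's coding sequence in which 1 family member differs most, from GENCODE release 29 transcripts, 5′ to 3′. Positions count from 1 at the first base of the parent's start codon. Capitals mark bases that differ from the parent. For RPS2, coding positions 261 to 290:
RPS2: tattaaggaatcagagatcattgatttctt
RPS2P46: Aattaaggaatcagagatcattgatttctt
RPS2P5: Cattaaggaatcagagatcattgatttctt
RPS2P7: CattaaggaatcagagatcattgaCttTtt
RPS2P55: CattaaggaatcagagatcattgaCttTtG
For RPL13A, coding positions 244 to 273:
RPL13A: cggaccgtgcgaggtatgctgccccacaaa
RPL13AP5: cggaccgtgcgaggtatgctgccccacaaG
RPL13AP25: cggacGgtgcgaggtatgctgccccacaaG
RPL13AP20: cAgaccAtgcgaggtatgcCgccccacaaG
For RPL23A, coding positions 373 to 402:
RPL23A: aacaccctgattcggcctgatggagagaag
RPL23AP42: aacaTcctgattcggcctgatggagagaag
RPL23AP82: aCcaccctgattTgTcctgatAAGgagaaC
RPL23AP7: aCcaccctgattTgTcctgatAAagagaag

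In these windows RPL13AP5 carries only A273G, while RPL13AP25 carries C249G and A273G. RPL23AP82 and RPL23AP7 share A374C, C385T, G387T, G394A and G395A, none of which RPL23AP42 has. Over the whole aligned part, identity to the parent ran from 77.3 to 100% with a median of 98.4% across the 93 members. In 85 members the copy covers at least 95% of the parent's coding part, and 24 share no stretch of 100 bases, the read length, with the parent. Among the 24 are RPL41P1 and RPL41P5, whose models of 81 and 78 nt are too short to hold one and are identical to RPL41. In 6 members no base differs from the parent. GENCODE 29 types 82 members as processed pseudogenes without the transcribed label, 10 as transcribed pseudogenes and RPS27AP5 as protein coding. Of the 10 transcribed ones, RPL32P3 and RPL23AP82 are typed as unprocessed and the others as processed.

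Reads assigned to genes numbered 82254731 to 90939945 per library. Unmapped pairs were 8.84% in WT and 15.17 to 17.31% in the mutant libraries, a difference that goes with the vector groups and whose part in the results was not tested. Of the markers of HEK293T cells, LIN28B had 152 to 165 CPM (reads scaled to library size) and NEFM 329 to 428. The leukocyte gene PTPRC, the endothelial gene CDH5, the basal epithelial gene KRT5 and the hepatocyte gene ALB were each below 0.5 CPM in every library, while the fibroblast gene COL1A1 had 20.8 to 24.8 CPM.

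Pseudogene reads were fewest in K700E. Together the members had 95198, 78777, 79485 and 63040 reads, or 1047, 958, 920 and 759 CPM. Relative to WT the sums were lower by 8.51% in R625H, 12.1% in K666T and 27.5% in K700E. The reads of the parents came to 47086, 47975, 44940 and 45082 CPM, so members equalled 2.22, 1.996, 2.05 and 1.68% of parent reads. Before scaling, the parents' gene reads numbered 4282030, 3946141, 3882546 and 3742977, fewest in K700E. Uniquely mapped reads across their introns numbered 6500097, 6050312, 5902093 and 6192974, fewest in K666T. The percents of parent reads are therefore uncertain. In bulk RNA, fewer cells with a transcript and less of it per cell cannot be told apart. The single copy RPS2P46 gave most of the members' reads in every library; without it the members' sums were 461, 413, 385 and 361 CPM.

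**Figure D1:**
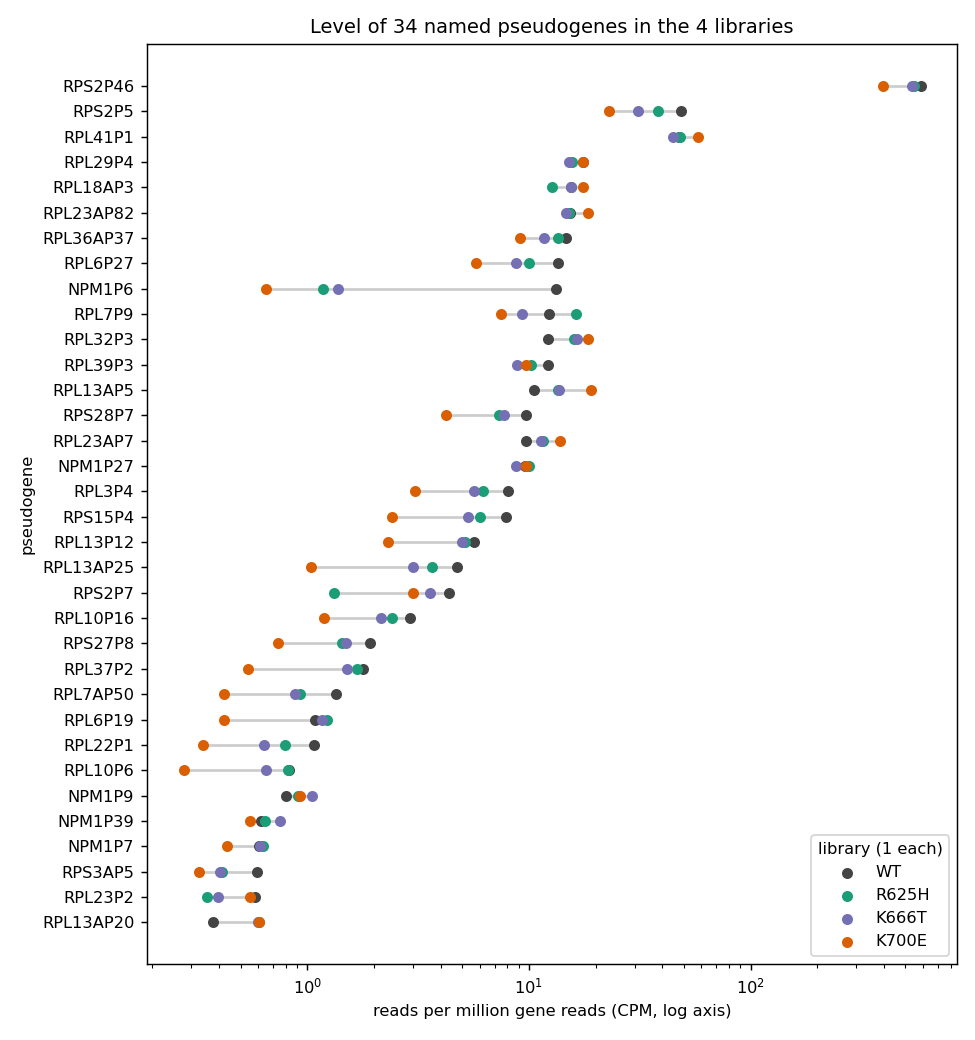
Reads scaled to library size (CPM, log axis) of the members with most reads, the widest distances between libraries, the NPM1 copies and those just inside the limit, 1 point per library, joined by a grey line. RPS2P46 lies far above the rest, and NPM1P6 spans the widest range, from 54 reads in K700E to 1210 in WT.

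For each gene the log2 ratio of CPM was taken against WT with a prior count of 10 reads, and a gene is counted as higher or lower at a 2-fold ratio. All 3 ratios share the WT library. In K700E, 20 of 93 members were at least 2-fold lower, against 0.484% of all genes, and none was 2-fold higher, against 1.48%. With a prior count of 50 reads, 9 were 2-fold lower. In R625H 2 members (NPM1P6 and RPS2P7) were 2-fold lower, against 0.0434% of all genes, and none was higher, against 0.701%. In K666T only NPM1P6 was 2-fold lower, against 0.0248%, and none was higher, against 0.781%. Members' medians for the 3 mutants were -0.19, -0.25 and -0.63, and those of all genes -0.02, 0.00 and 0.00. Below WT lay 69 members in R625H (54.1% of all genes), 75 in K666T (50%) and 73 in K700E (49.5%). Of the 20 members 2-fold lower in K700E, 7 had under 50 reads there, so they met the limit only through other libraries.

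**Figure D2:**
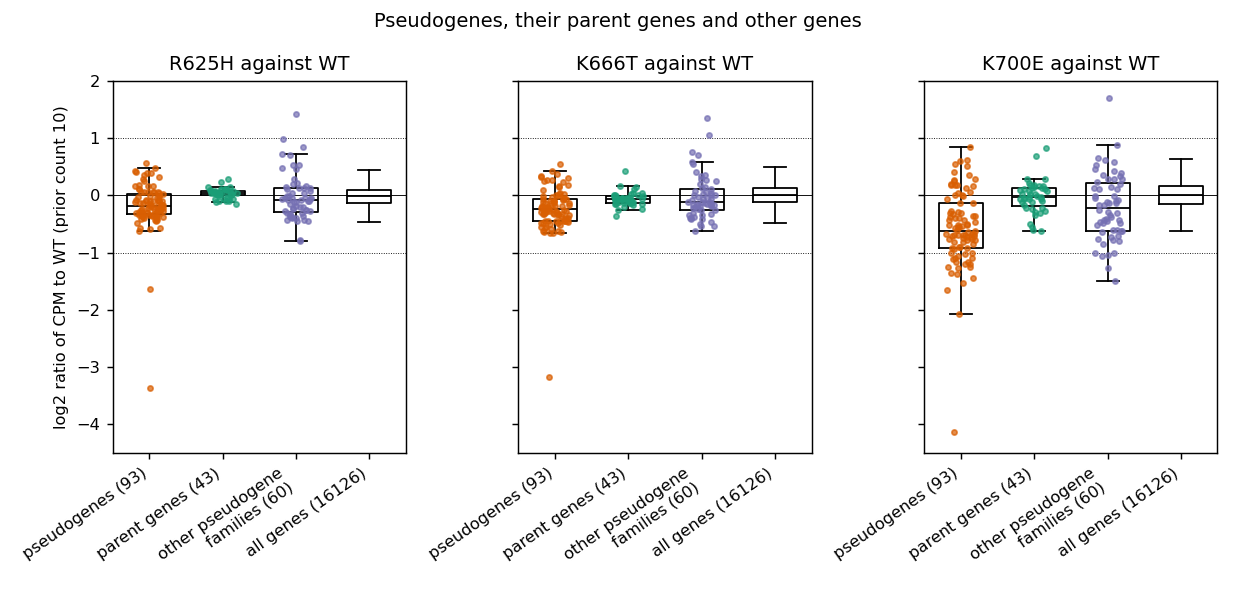
Log2 ratio of CPM to WT for members, parents, other pseudogene families and all genes at the read limit in each mutant library; points are genes, boxes give median and quartiles, whiskers reach the last gene within 1.5 times the box, and single genes are not drawn for the all-gene set. Members sit lowest in K700E, with a median of -0.63 against -0.03 for the parents.

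The libraries took an order for most members. K700E had the lowest CPM of the 4 libraries for 65 members, 69.9%, where it was lowest for 28.8% of all genes. WT was highest and K700E lowest for 54 members, with R625H and K666T between them, against 17.3% of all genes. Members below WT in all 3 mutant libraries numbered 61 (35% of all genes), and 10 were above WT in all 3 (32.8% of all genes). These 10 were RPL13AP5, RPL13AP20, RPL32P3, RPL23AP7, RPL23AP53, RPL13P8, RPL31P46, RPL7AP39, NPM1P9 and RPS27AP16. The log2 distance between highest and lowest library had a median of 0.68 over members, 0.20 over parents and 0.23 over all genes. That distance reached 2-fold in 23 members, against 2.48% of all genes, and in no parent. Counting error widens the distance for genes with few reads, and the sets were not matched for reads. In WT the 43 parents had 4282030 reads and the 93 members 95198.

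RPS2, a small-subunit protein of the mRNA entry site, had 4 copies at the limit. RPS2P46, on chromosome 17, had 53236, 44805, 46241 and 33038 reads. Every mutant library was below WT in CPM, K700E most, at log2 ratios of -0.10, -0.13 and -0.56. The fold in K700E was 0.680 (95% interval 0.670 to 0.689, counting error only). RPS2 itself had 268358, 224689, 221935 and 161717 reads and log2 ratios of -0.11, -0.20 and -0.60. The copy thus kept to 19.8, 19.9, 20.8 and 20.4% of the parent's reads across libraries. Per kilobase of transcript the level of RPS2P46 in WT was 22.1% of that of RPS2, where the median member stood at 0.367% of its parent.

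The other RPS2 copies did not all keep that share. RPS2P5 had 4397, 3135, 2680 and 1912 reads, with log2 ratios of -0.34, -0.64 and -1.07. RPS2P55 had 130, 107, 97 and 59 reads and a log2 ratio of -0.90 in K700E. RPS2P7 had 395, 108, 310 and 250 reads. R625H alone stood apart for RPS2P7, at a log2 ratio of -1.64, with -0.27 and -0.51 in K666T and K700E. RPS2P7 differs from RPS2 at 28 positions over its length, RPS2P46 and RPS2P5 at 11 each.

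RPL13A, a large-subunit protein also known for a part in translational silencing after interferon, had copies on opposite sides of WT. RPL13AP25 had 430, 299, 259 and 86 reads. Its log2 ratios were -0.37, -0.64 and -2.07, and the fold in K700E was 0.219 (0.172 to 0.277). RPL13AP5 had 956, 1116, 1185 and 1578 reads. It was above WT in every mutant library, at 0.36, 0.38 and 0.85, with a fold of 1.808 in K700E (1.667 to 1.961). RPL13A had 98407, 90410, 86019 and 63868 reads and ratios of 0.02, -0.12 and -0.49. RPL13AP5 accordingly went from 0.971% of parent reads in WT to 2.47% in K700E. Its distance of 1.34 above the parent in K700E, in log2 ratio, was the largest upward one of all members. That distance rests on the gene counts of RPL13A, which overlaps AC010619.2 and small nucleolar RNA genes on the same strand. Uniquely mapped reads across the introns of RPL13A numbered 270569, 250127, 241681 and 244955, with no matching fall in K700E. The count of this parent, and so the share and distance of RPL13AP5, is therefore uncertain. RPL13AP5 is 99.5% identical to RPL13A, RPL13AP25 97.7% and RPL13AP20, the third copy, 96.7%.

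Of the NPM1 copies, NPM1P6 stood apart from the rest. It had 1210, 97, 119 and 54 reads. WT was the high library and the mutant libraries did not approach it, at log2 ratios of -3.37, -3.17 and -4.13. The fold in K700E was 0.049 (0.037 to 0.064). Among all 16126 genes NPM1P6 alone was at least 2-fold lower than WT in all 3 mutant libraries (0.0062% of genes; 0.453% were at least 2-fold higher in all 3, no member among them). NPM1 had 226240, 226903, 232766 and 224877 reads, with ratios of 0.15, 0.11 and 0.12. NPM1P6 lies inside the gene CLVS1 on the same strand, which had 5, 7, 11 and 6 reads.

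The other NPM1 copies were within 2-fold of WT. NPM1P27 had 873, 822, 759 and 805 reads, log2 ratios of 0.06, -0.13 and 0.01. NPM1P9 had 73, 75, 91 and 77 reads, NPM1P39 56, 53, 65 and 46, and NPM1P7 55, 52, 53 and 36. NPM1P7 overlaps an exon of CLEC2D on the same strand, so its reads are uncertain for that reason too. Summed, the 5 NPM1 copies had 24.9, 13.4, 12.6 and 12.3 CPM, and 1210 of their 2267 WT reads were those of NPM1P6.

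**Figure D3:**
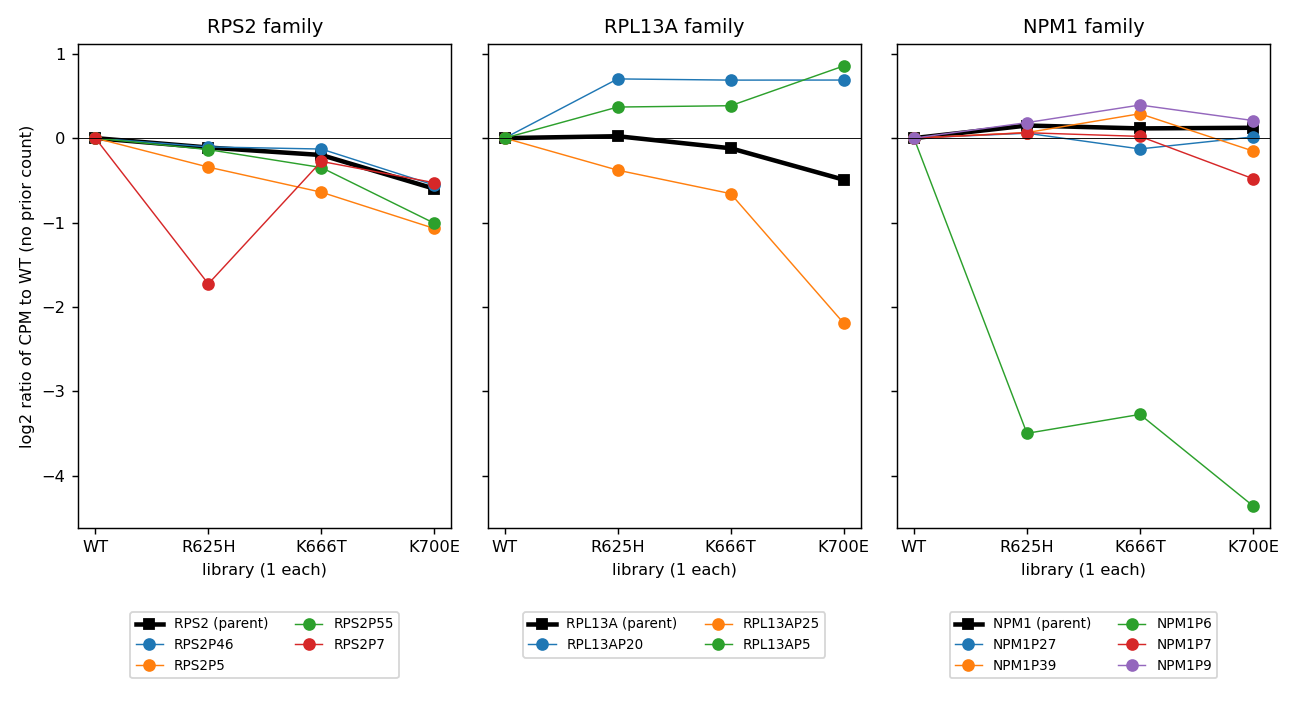
Log2 ratio of CPM to WT, without a prior count, for the RPS2, RPL13A and NPM1 families in the 4 libraries; black squares are the parent, coloured circles the copies, and thin lines only join values of a gene. RPL13AP5 and RPL13AP25 lie on opposite sides of RPL13A in K700E, and NPM1P6 lies far below NPM1 in all 3 mutant libraries.

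Of 21 copies of small-subunit genes other than RPS2, 6 were 2-fold lower in K700E, against 0.484% of all genes. RPS15P4, a copy of a gene whose protein is needed for export of the small subunit, had 713, 494, 458 and 200 reads and log2 ratios of -0.38, -0.55 and -1.66. RPS15 had the lowest K700E ratio of the 43 parents, -0.63. RPS28P7, identical to its parent over its length, had 9.67, 7.36, 7.71 and 4.23 CPM and a K700E ratio of -1.17, against -0.29 for RPS28. RPS27P8 had 175, 118, 129 and 61 reads and a ratio of -1.26. Also past 2-fold were RPS27AP5 (-1.09), RPS23P8 (-1.03) and RPS18P5 (-1.01). RPS27AP5 is a copy of the ubiquitin fusion gene RPS27A. Leaving RPS2P46 out, the RPS copies together had 124, 100.3, 92.3 and 68.4 CPM.

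Among copies of large-subunit genes, 12 of 63 were 2-fold lower in K700E, against 0.484% of all genes. RPL6P27 had 1230, 826, 754 and 481 reads, a ratio of -1.21 in K700E. RPL3P4, a partial copy of the gene for a protein near the peptidyl transferase centre, had 729, 509, 490 and 255 reads and a ratio of -1.35. RPL13P12 had 515, 424, 431 and 192 reads and a ratio of -1.25. In each of these, K700E was the low library and R625H and K666T lay between it and WT. RPL37P2 had 163, 138, 131 and 45 reads (-1.54), RPL7AP50 122, 76, 76 and 35 (-1.44) and RPL22P1 97, 65, 55 and 28 (-1.38). RPL10P16 with 263, 198, 185 and 99 reads (-1.20) and RPL10P6 with 75, 67, 56 and 23 (-1.26) are copies of RPL10, a late-joining protein of the large subunit. RPL6P19 had 99, 101, 101 and 35 reads (-1.16): here K700E alone was low. The parents of these copies lay between -0.35 (RPL13) and 0.28 (RPL22) in K700E. RPL29P11 (-1.12) and RPL41P2 (-1.10) complete the 12, with RPL13AP25 above.

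In a few copies R625H was above WT and the other mutant libraries below it in the stranded counts. RPL7P9 had 1124, 1343, 807 and 620 reads, log2 ratios of 0.40, -0.40 and -0.72. RPL7P1 had 232, 281, 184 and 141 reads, and RPL21P75 121, 157, 96 and 65. For all 3 of these R625H was the high library and K700E the low one. In the unstranded counts, however, RPL21P75 had 40, 28, 31 and 13 reads, with R625H below WT at -0.28. The gene AC005062.1 overlaps RPL21P75 on the other strand, where RPL21P75 had 0 reads in every library. Another RPL7 copy, RPL7P23, had 83, 59, 53 and 42 stranded reads. RPL7 had ratios of 0.07, -0.09 and -0.06. RPL36AP37, identical to its parent over its length, had 1335, 1112, 1007 and 757 reads, which was more than the 562, 619, 718 and 627 reads of RPL36A. RPL36A overlaps the readthrough gene RPL36A-HNRNPH2, as RPL17 and RPS10 overlap readthrough genes. Reads shared between them leave these parents' counts uncertain. Uniquely mapped reads across the introns of RPL36A numbered 135401, 127997, 133462 and 132785, far above its gene reads. The comparison of RPL36AP37 with its parent is therefore uncertain too.

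Several abundant large-subunit copies were not lower in K700E. RPL41P1 had 4311, 3973, 3847 and 4828 reads, a ratio of 0.29, against 0.18 for RPL41, whose protein is the smallest of the ribosome. Its model of 81 nt is shorter than a read. RPL41P5 had 272, 241, 205 and 388 reads and a ratio of 0.62. RPL29P4 had 1597, 1291, 1311 and 1459 reads, ratios of -0.16, -0.21 and 0.00, and RPL18AP3 had 1413, 1048, 1331 and 1458, ratios of -0.28, -0.01 and 0.18. K700E was level with or above WT in all of these. RPL39P3, by contrast, had 1105, 841, 767 and 803 reads and ratios of -0.25, -0.45 and -0.33. As a sum the RPL copies had 313, 299, 280 and 281 CPM, so K666T and K700E gave nearly equal sums.

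**Figure D4:**
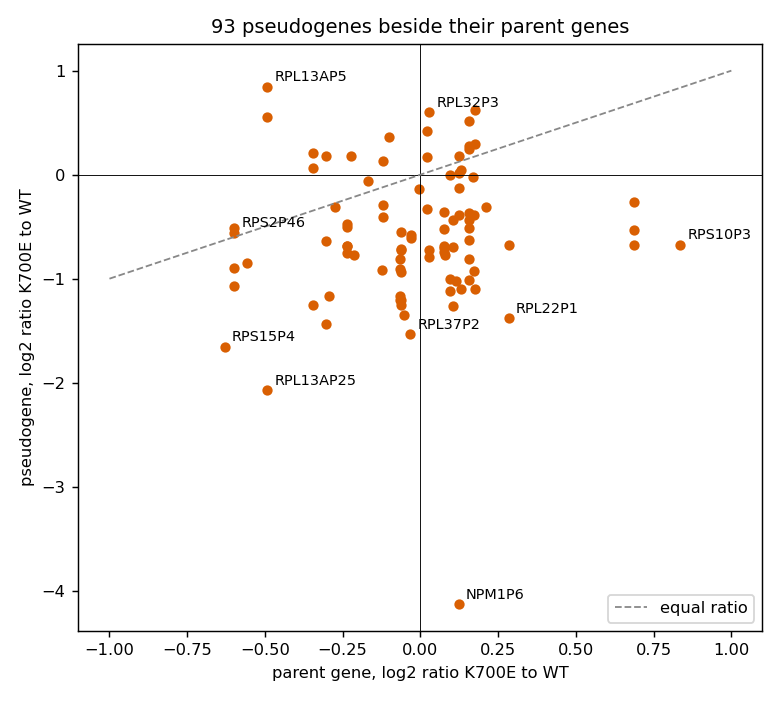
Log2 ratio of CPM in K700E to WT of each member against that of its parent, each point a member. Points below the dashed line of equal ratio are lower relative to WT than their parent. In K700E the median member lay 0.56 below its parent.

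The parent genes lay nearer to WT as a set. Their medians were 0.04, -0.06 and -0.03 for R625H, K666T and K700E. No parent was 2-fold from WT in any mutant library. Of all genes, 0.701, 0.781 and 1.48% were 2-fold higher and 0.0434, 0.0248 and 0.484% lower. With shares so small, finding none among 43 parents says little. In K700E the parents ran from -0.63 (RPS15) to 0.83 (RPS10). The gene counts of some parents are uncertain. RPS10 had 1833 gene reads in WT and 2992 in K700E, but 154826 and 139340 uniquely mapped reads across its introns. RPS15A, at -0.56, had 8842 and 5477 gene reads, but 111228 and 99869 across introns. RPL26, at -0.12, had 4322 and 3624, but 103860 and 109725. Differences between copies and these parents are uncertain for that reason. The median difference between a member's and its parent's log2 ratio was -0.23, -0.18 and -0.56. Across the 93 members the K700E ratio of copy and parent had a Spearman rho of 0.13. Members of a family share a parent and all share the libraries, so this is a description. Of reads spanning 374 introns of the parents, 12.0, 11.6, 11.5 and 11.9% mapped to more than 1 place.

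Likeness to the parent, which the rule did not use, went with the ratio in K666T and K700E, and less so in R625H. The bounds of the classes were set after the values had been seen. The 15 members below 95% identity had median log2 ratios of 0.04, 0.03 and 0.18 in R625H, K666T and K700E. In K700E 10 of them were above WT, against 50.5% of all genes. None was 2-fold lower in these libraries, against 0.0434, 0.0248 and 0.484% of all genes. With shares so small, finding none among 15 says little. The 78 members at 95% or more had medians of -0.20, -0.28 and -0.69, and held all 20 that were 2-fold lower in K700E. Above 95% there was no further step: K700E medians were -0.67 for 23 members from 95 to below 98%, -0.73 for 28 from 98 to below 99% and -0.69 for 27 at 99% or more. Over all members Spearman's rho between identity and the ratio was -0.17 in R625H, -0.32 in K666T and -0.27 in K700E. For the longest identical stretch it was -0.19, -0.32 and -0.32. Members of a family share sequence and are not independent points.

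**Figure D5:**
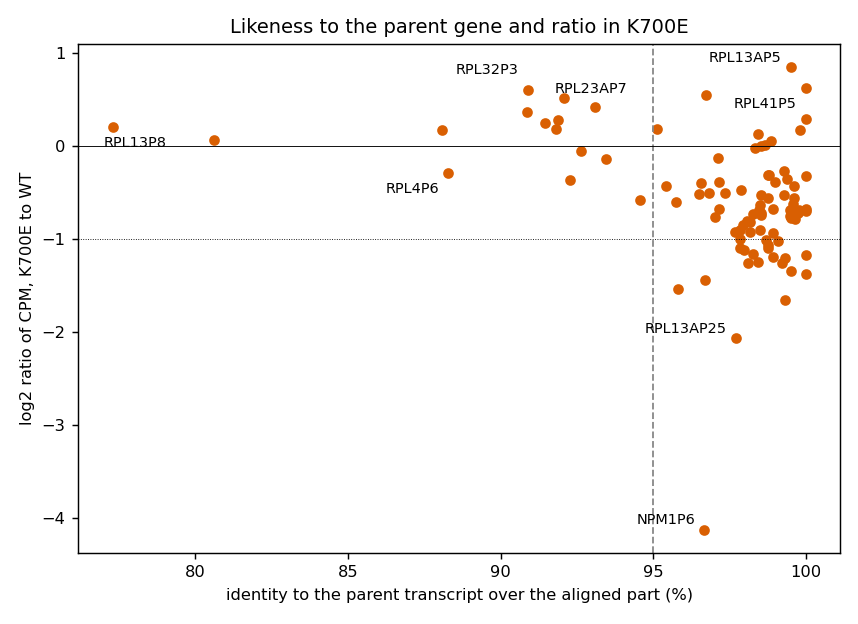
Log2 ratio of CPM in K700E to WT against identity to the parent transcript (percent) for the 93 members, 1 point each; the dashed line marks 95% and the dotted line a 2-fold lower level. All members below the dotted line lie right of the dashed line.

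The divergent members include pseudogenes annotated as transcribed. RPL32P3 had 1108, 1313, 1426 and 1539 reads, ratios of 0.39, 0.43 and 0.60. It is typed as a transcribed pseudogene, is 90.9% identical to RPL32 over the aligned part and overlaps the small nucleolar RNA gene SNORA7B. RPL23AP7 had 878, 951, 982 and 1147 reads (0.26, 0.23 and 0.51), and RPL23AP82 1389, 1253, 1271 and 1535 (0.00, -0.05 and 0.27). Both are typed as transcribed too, and are 92.1 and 91.9% identical to RPL23A. RPL23AP42, 99.6% identical to the same parent, had 787, 535, 543 and 461 reads and ratios of -0.41, -0.45 and -0.63. In the unstranded counts it kept only 12, 7, 13 and 4 reads and K666T was above WT, at 0.10. The genes AC112491.1 and LINC02067 overlap RPL23AP42 on the other strand, where RPL23AP42 had 0, 3, 1 and 4 reads. Its values thus rest on the strand setting, and its unstranded ratios on few reads. Copies of RPL23A lay on both sides of WT in K700E, and RPL23AP49, 92.3% identical, was below it at -0.37. The 10 transcribed pseudogenes, most of them typed as processed too, had a K700E median of 0.15. In K700E 7 of them were above WT (50.5% of all genes) and 3 below (49.5%), RPL6P27 lowest at -1.21. The 82 typed as processed without the transcribed label had a median of -0.68. Type and identity overlap in these members.

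Surrounding genes were compared where they share the strand. Another gene overlapped 26 members on the same strand, and their K700E median was -0.41, against -0.69 for the 67 without one. Some of these neighbours are small RNA genes, as SNORA7B at RPL32P3. Of the 27 pairs of member and neighbour, 16 neighbours had at least 50 reads in a library. None of these was 2-fold lower in a mutant library, against 0.0434, 0.0248 and 0.484% of all genes in R625H, K666T and K700E. With shares so small, that count says little about these neighbours. Their medians were -0.03, 0.00 and 0.04. MECOM, which holds RPL22P1, had 2253, 2136, 2285 and 2208 reads, and PLEKHA7, which holds RPL36AP37, 1782, 1550, 1681 and 1843. In K700E they had log2 ratios of 0.10 and 0.18. Among the 16 pairs in K700E, both genes were below WT in 4, both above in 4, the copy below and the neighbour above in 5, and the reverse in 3. CLEC2D, at -0.50 with NPM1P7 at -0.39, and APOO, at -0.20 with RPL9P7 at -0.79, were on the same side as their copy. Members lay almost wholly on their annotated strand: the other strand had 0.246, 0.321, 0.265 and 0.332% of their reads. The rule counted reads of the annotated strand only, so it favours such genes. RPL23AP82 and RPS18P5 held many of those, with 78 to 101 and 23 to 52 reads per library.

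Between mutant libraries the members were again lowest in K700E. R625H was at least 2-fold above K700E for 8 members (0.242% of all genes) and below it for RPS2P7 (0.707%). K666T was 2-fold above K700E for 5 members (0.186%) and below it for none (0.614%). RPL13AP25, RPL37P2, RPL6P19, RPS15P4 and RPL13P12 were in both sets, which share the K700E library. RPL13AP25 had log2 ratios of 1.70 for R625H over K700E and 1.43 for K666T over K700E. R625H and K666T were closer: no member was 2-fold higher in R625H (0.0558%) and RPS2P7 alone was lower (0.0496%), at -1.37. Medians were 0.42 for R625H over K700E, 0.34 for K666T over K700E and 0.03 for R625H over K666T.

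Pseudogenes of other abundant housekeeping genes were counted for comparison. At the same limit there were 60, copies of genes such as EEF1A1, GAPDH and PPIA. Their medians were -0.08, -0.11 and -0.21 in R625H, K666T and K700E, the same order as for the members with smaller values. In K700E 5 were 2-fold lower, against 0.484% of all genes, and 1 was higher, against 1.48%. Their summed CPM were 223, 210, 200 and 214, so the sum was not lowest in K700E. Whether the sets differ beyond the spread between libraries of the same vector was not tested.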

How the data were processed

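Per the labels' protocols, stranded mRNA libraries were read as 100-bp pairs. The tools were STAR 2.5.3a and HTSeq on build hg19 (GRCh37), per the submitters' processing notes; which step used HTSeq, and with which annotation, was not stated in the sources at hand. The authors deposited read counts, not normalized, for each gene in 3 strand settings and for each splice junction. Column 4 of the gene files, the stranded counts, was used, and rows that name no gene (multimapping pairs, 4.01 to 4.40% of pairs; no feature, 5.01 to 5.87%; ambiguous, 3.04 to 3.43%; and unmapped pairs) were left out of library sizes. Gene symbols came from a name table that held 51996 of 57820 gene IDs.

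CPM were scaled to reads assigned to genes, and log2 ratios carry a prior count of 10. Folds are without a prior count; their 95% intervals are exact conditional binomial (Clopper-Pearson) and cover counting error only, since reads without molecular identifiers are not independent molecules. The calculation of ratios and intervals was checked on simulated counts. Identity is the best local alignment (Biopython 1.88) of GENCODE 29 (GRCh38) transcripts; parent introns were matched to the hg19 junctions by length and order. Genome positions on hg19 were not used here. TMM factors (edgeR 4.0.16), size factors (DESeq2 1.42.0), prior counts of 1 and 50, unstranded counts and other read limits were tried. Python 3.11.15 and R 4.3.3 were used.

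The members, lists and tests were chosen with earlier results of these data known. Named members are the 15 with most reads in any library, the 15 with the widest log2 distance over libraries, any 2-fold from WT in all 3 mutants, every NPM1 copy, the 3 genes on either side of the read limit, and their parents. RPL29P11, RPL41P2, RPL41P5, RPS27AP5, RPS27AP16, RPS23P8, RPS18P5, RPS18P12, RPS10P3, RPS2P55, RPL7P1, RPL21P75, RPL23AP42, RPL23AP2, RPL39P40, RPL9P7, RPL23AP49, RPL7P23, RPL23AP53, RPL13P8, RPL31P46 and RPL7AP39 were named after their values were seen.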

Additional observations from a re-analysis of the deposited data

How the results depend on the processing

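The number of members 2-fold lower in K700E was 21 with TMM factors or size factors and 9 with a prior count of 50, which pulls low counts toward WT. With a limit of 20 reads, 160 genes were members, and 3 were 2-fold higher in R625H and 1 in K700E. Unstranded counts put members at 2.29, 2.06, 2.11 and 1.74% of parent reads in WT, R625H, K666T and K700E. Without RPS2P46, a setting added after the data were seen, the log2 ratios of the sum were -0.16, -0.26 and -0.35. Of 279 ratios of single members to WT, 2 changed sign with TMM factors and 3 with size factors, all within 0.02 of 0, and none with another prior count. Unstranded counts changed the sign of 11, among them RPL21P75 in R625H (-0.28), RPL23AP42 in K666T (0.10), RPL23AP2 in R625H and K666T (0.09 and 0.44) and RPL39P40 in R625H (0.33). In 5 members unstranded reads were under 60% of the stranded ones. Both scalings kept the median of all genes within 0.02 of 0. A prior count of 50 brought NPM1P6 to -2.98, -2.82 and -3.49 and RPL13AP25 to -1.71 in K700E. Size factors brought RPS2P46 to -0.09 in R625H. No paired analysis was possible because each vector has 1 library. No library could be left out, since each group holds 1. Copies near 50 reads have wide counting intervals, and reads shared with the parent limit every value.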

Other observations

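Pseudogenes of the same families under the read limit, 1444 genes, had 44.2, 39.96, 42.2 and 33.4 CPM in the order WT, R625H, K666T, K700E, from 2777 to 4019 reads. K700E was again the lowest library. On the other strand these genes had 31.1, 34.1, 34.2 and 42.1% of their reads on both strands. The limit was set on reads of the annotated strand only. A higher share here than in the members is therefore partly built into the rule.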
